A study of Homo sapiens with 6 samples.

Results

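The SR proteins and the heterogeneous nuclear ribonucleoproteins (hnRNPs) were followed on the 6 arrays through 137 probe sets of 34 genes, out of 44988 probe sets of 18132 genes that the platform annotation ties to 1 gene symbol. A gene was a member when its symbol began with SRSF and a digit, which gave 12 SR protein genes with 54 probe sets, or with HNRNP, which gave 22 hnRNP genes with 83 probe sets. A further 10 probe sets that carry a second symbol beside such a name were left out of all counts, among them the 3 that read HNRNPH2. A probe set is a group of short probes on the array that is summarised to 1 value, and 27 of the 34 genes had more than 1.

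SR proteins carry RNA recognition motifs and a tail rich in arginine and serine, bind exonic enhancers in pre-mRNA, and help the spliceosome to recognise exons. The hnRNPs coat nascent transcripts, and many of them act in the opposite sense, by binding silencers and promoting exon skipping, while others work in mRNA stability, export or chromatin organisation. Many genes of both families control their own output by alternative splicing of a poison exon or of the 3′ end, so that part of their transcripts is sent to nonsense-mediated decay. A change in such a gene can therefore appear in some of its transcripts and not in others.

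RNA came from cells labelled TPC-1, an established line of human papillary thyroid carcinoma grown in RPMI1640 with serum. A lentivirus brought a short hairpin RNA (shRNA) into both groups, a control shRNA in 3 samples and an shRNA against SHCBP1 in the other 3, with 1 Affymetrix array per sample. The labels name no time after infection and no other hairpin against SHCBP1, so an effect of losing SHCBP1 and an off-target effect of the hairpin cannot be told apart. They also name DLD1, a colorectal line, in the extraction text. Separate cultures are not described, so the spread behind each p-value is that of these 6 samples and may be technical only.

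All values are on a log2 scale with the median of every probe set across the 6 arrays set to 0. They show how arrays differ for a probe set, and they hold no level, so no gene is ranked by abundance and the markers of the cell line could not be checked for presence. SHCBP1 itself lay between 0.71 and 0.76 in the control shRNA arrays and between -0.95 and -0.72 in the SHCBP1 shRNA arrays, a difference of -1.54 ± 0.06 (standard error, SE, of a difference between groups with n = 3 each, as for every ± value below). Of 6 thyroid markers 1 passed limma's test (FOXE1, 0.24), of 8 intestinal markers 2 did (KRT20, -1.09, and CDX2, 0.12), and of 5 fibroblast markers 0 did, with 1 at an unadjusted p under 0.05. The poly-A spike-in controls rose by 0.43 ± 0.04, the control probe set near the 5′ end of 28S ribosomal RNA rose by 2.80 ± 0.03, and the 3′ to 5′ ratios of ACTB and GAPDH moved by -0.08 and -0.01. The part of these differences in the results was not tested. Every change below is relative to the bulk of genes measured, since scaling to the spike-in controls lowers each gene by 0.43 and turns all 6 rises of members into falls (median of all genes -0.41). In bulk RNA, fewer cells of a kind and less RNA per cell cannot be told apart.

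At the level of gene means, 20 of the 34 genes changed: 6 rose and 14 fell in the SHCBP1 shRNA arrays (limma with Benjamini-Hochberg adjustment over all genes, adjusted p under 0.05). Over all genes tested the same rule called 41%, with 22% higher and 19% lower. Falls were mostly among the hnRNP genes, of which 11 of 22 fell and 2 rose, with a median difference of -0.10. Of the 12 SR protein genes 3 fell and 4 rose, with a median of 0.03, and the median of all genes was 0.02. The difference between the 2 families was not tested. The excess of falls rested in part on probe sets that may read more than 1 gene (names ending in _s_at or _x_at). Without them 23 members were left, 6 called higher and 6 lower, against 3389 and 2926 of 16701 genes. Most changes were small: a called change of at least 0.5 on the log2 scale was seen for 4 members, all of them falls, where 8.21% of all genes reached that size. The control shRNA and SHCBP1 shRNA arrays did not overlap for 24 of the 34 genes, against 50% of all genes.

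**Figure D1:**
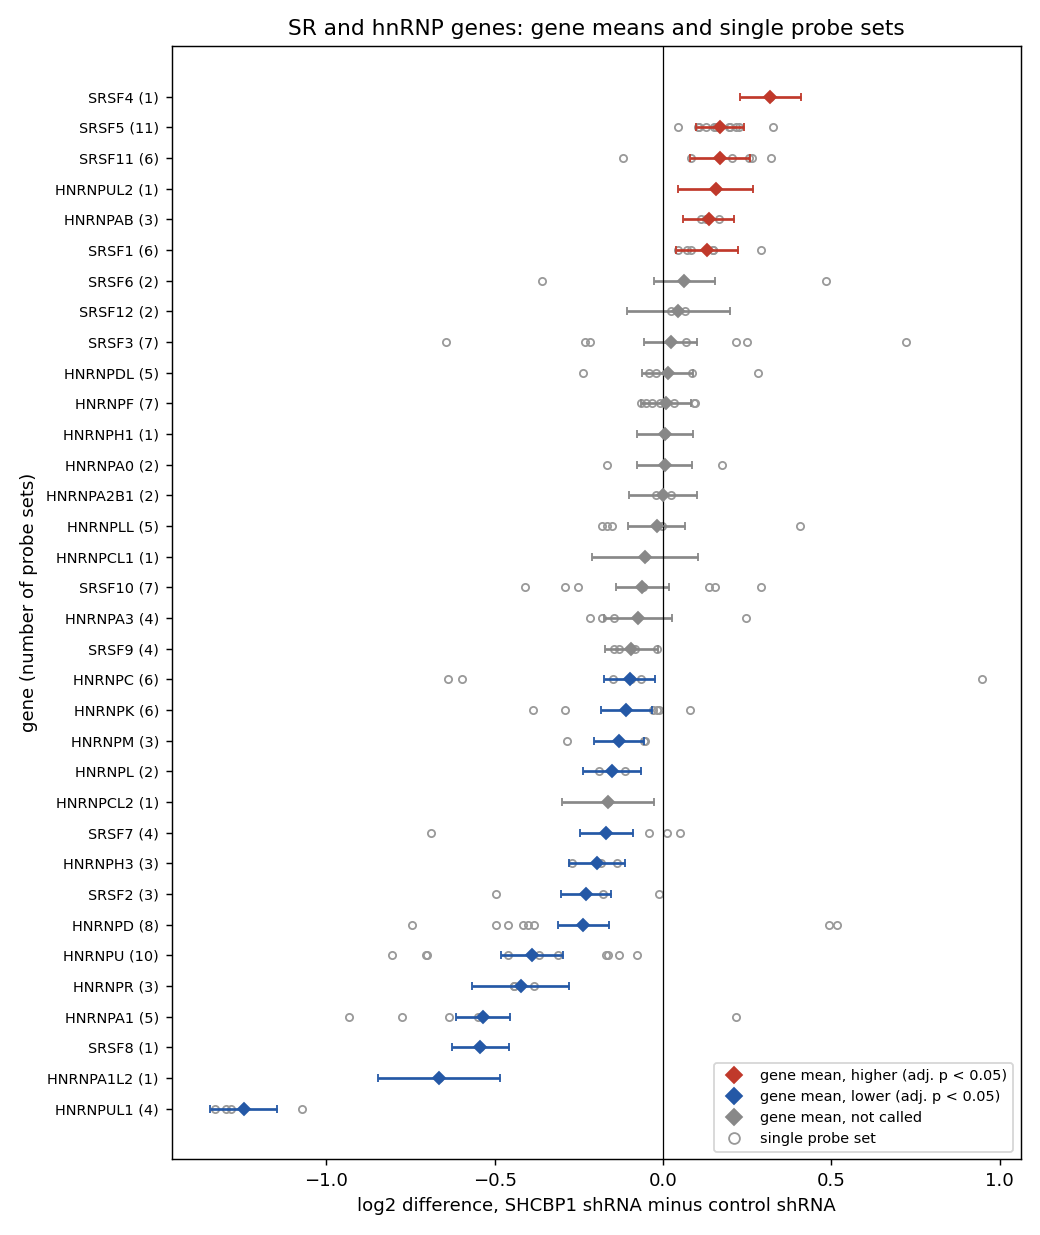
Log2 difference between SHCBP1 shRNA and control shRNA arrays for each of the 34 genes, with the gene mean as a diamond, its 95% confidence interval as a bar (n = 3 arrays per group) and single probe sets as open circles. HNRNPUL1 lies lowest at -1.25 with its 4 probe sets close together, while the probe sets of HNRNPC, SRSF3 and HNRNPD lie on both sides of 0.

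HNRNPUL1, which encodes an hnRNP U-like protein that binds RNA and also acts at DNA breaks, showed the largest change of the family. Its gene mean was 0.59, 0.59 and 0.71 in the controls and -0.61, -0.61 and -0.64 after SHCBP1 shRNA. The SHCBP1 shRNA arrays were all low and close together, and the groups were far apart. The gene fell 2.37-fold, a log2 difference of -1.25 ± 0.04 (SE, with a 95% confidence interval of -1.34 to -1.15, adjusted p = 1.27e-06 by limma), and 73 genes on the arrays fell further. All 4 probe sets fell, by between 1.07 and 1.33 on the log2 scale. Their names end in _s_at or _x_at, Affymetrix's marks for probes that may read more than 1 gene, so no value was left for HNRNPUL1 when such probe sets were removed. Its paralog HNRNPUL2, read by 1 probe set, lay at -0.02, -0.12 and -0.19 in the controls and at 0.02, 0.07 and 0.04 after SHCBP1 shRNA. HNRNPUL2 rose by 0.16 ± 0.05 (adjusted p = 0.0323 by limma), and this call was lost in 5 of the 6 fits that left out 1 array, namely control shRNA replicate 2 or 3 or any SHCBP1 shRNA replicate (adjusted p = 0.0572 to 0.0945). The same probe set was not called in the test over all probe sets (adjusted p = 0.0518 by limma).

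HNRNPA1 encodes the best known exon-silencing hnRNP. Its gene mean was 0.27, 0.24 and 0.25 in the controls and -0.30, -0.24 and -0.31 after SHCBP1 shRNA, so the groups did not overlap. The difference was -0.54 ± 0.03 (SE, adjusted p = 1.46e-05 by limma). HNRNPA1L2, an intronless copy of HNRNPA1, gave 0.25, 0.36 and 0.22 against -0.22, -0.47 and -0.48 and fell by 0.67 ± 0.08, from 1 _x_at probe set. The RefSeq table holds 75 pseudogenes named after HNRNPA1, and signal of the gene, its copy and these pseudogenes cannot be told apart by names alone. The other members of the A/B group moved less. HNRNPA3, whose groups did not overlap, differed by -0.07 ± 0.04 (adjusted p = 0.225 by limma), HNRNPA0 by 0.01 and HNRNPA2B1 by 0.00, with a 95% confidence interval of -0.10 to 0.10 for the last. With the median of the probe sets HNRNPA3 was called lower. HNRNPAB, which encodes an RNA-binding protein related to hnRNP D, gave -0.08, -0.07 and -0.05 in the controls and 0.10, 0.05 and 0.07 after SHCBP1 shRNA and rose by 0.14 ± 0.03.

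HNRNPR, HNRNPU and HNRNPD fell too, each with groups that did not overlap. HNRNPR, a relative of the RNA-binding regulator SYNCRIP, lay at 0.11, 0.18 and 0.25 in the controls and at -0.32, -0.28 and -0.12 after SHCBP1 shRNA. It fell by 0.42 ± 0.06, with 3 probe sets at -0.44, -0.44 and -0.38, of which 2 were called on their own. HNRNPU encodes the scaffold attachment factor that ties RNA to chromatin. Its values were 0.18, 0.16 and 0.25 against -0.23, -0.18 and -0.16, and it fell by 0.39 ± 0.04, with 8 of its 10 probe sets called lower and 0 higher. HNRNPD, known as AUF1 and for the decay of mRNAs with AU-rich elements, gave 0.13, 0.09 and 0.14 against -0.12, -0.11 and -0.13 and fell by 0.24 ± 0.03, but this mean hides probe sets that moved in opposite directions, described below.

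The remaining hnRNP falls were between 0.10 and 0.20 on the log2 scale. HNRNPH3, whose relatives bind G-rich runs, fell by 0.20 ± 0.04, HNRNPL, which binds CA repeats, by 0.15 ± 0.04, HNRNPM by 0.13 ± 0.03, the poly(C)-binding HNRNPK by 0.11 ± 0.03, and the U-tract-binding HNRNPC by 0.10 ± 0.03. With the median of the probe sets HNRNPM and HNRNPK were no longer called. The HNRNPK call was also lost without any 1 of the 6 arrays, and the HNRNPC call was lost without any but control shRNA replicate 3 (adjusted p = 0.0793 to 0.113 in those 5 fits). No change was called for HNRNPF, HNRNPH1, HNRNPDL, HNRNPLL, HNRNPCL1 or HNRNPCL2, whose differences lay between -0.16 and 0.01. For HNRNPF, with 7 probe sets between -0.06 and 0.10, the 95% confidence interval was -0.06 to 0.08. HNRNPCL1 and HNRNPCL2 are copies of HNRNPC with 1 _x_at probe set each. HNRNPCL2 was called lower with array weights and without control shRNA replicate 2 or SHCBP1 shRNA replicate 2. HNRNPCL1 was called lower without control shRNA replicate 3.

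**Figure D2:**
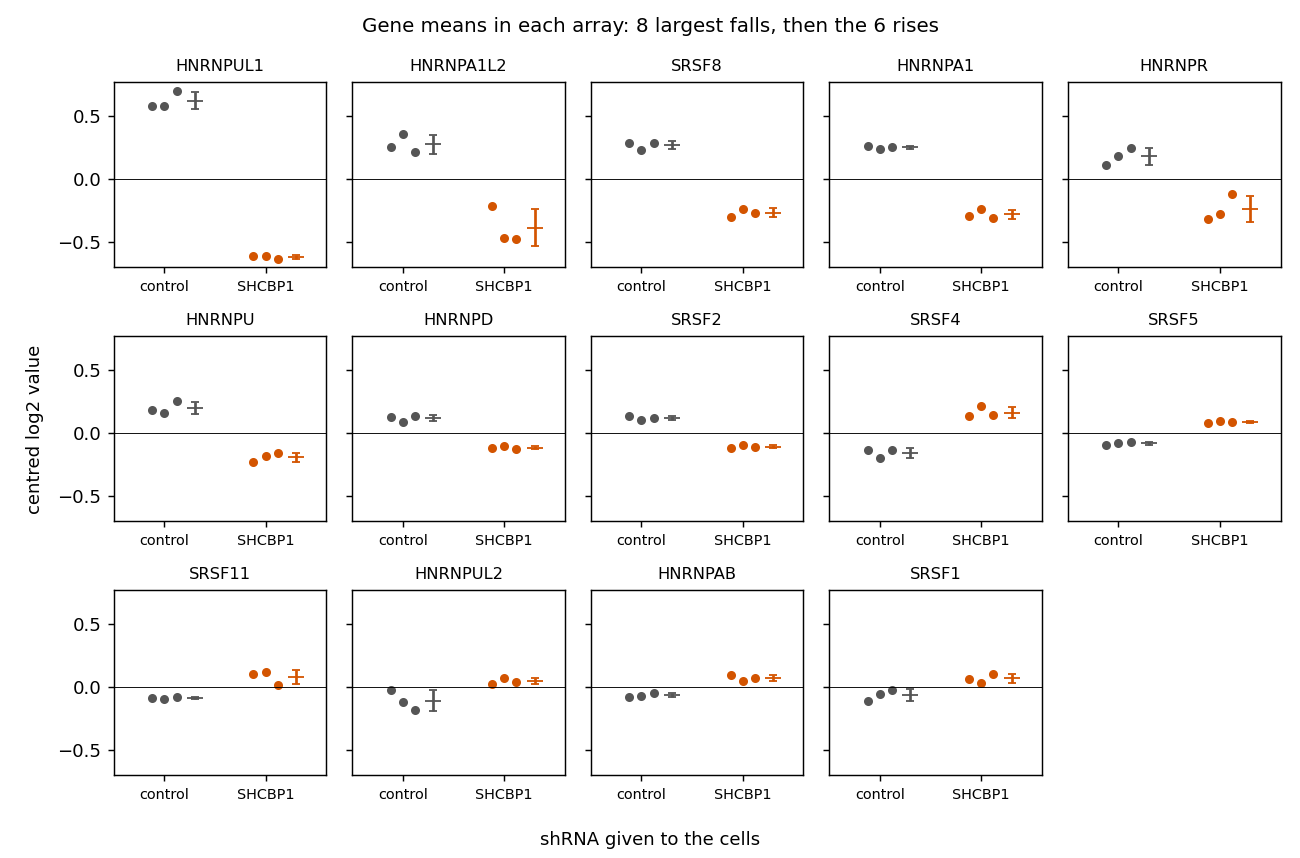
Centred log2 value of the gene mean in each array (points) with the group mean and SD (bar, n = 3 arrays per group) for the 8 members with the largest falls and the 6 that rose. For HNRNPUL1 the control shRNA arrays lie between 0.59 and 0.71 and the SHCBP1 shRNA arrays between -0.64 and -0.61, while for SRSF1 the nearest arrays of the groups lie at -0.02 and 0.03.

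Upstream sequences were examined because MYC, a transcription factor known to activate several hnRNP genes through the E-box, fell on the same arrays by 1.21 ± 0.05 on the log2 scale. MYC was read by 1 probe set. The search covered the 250 bases before each RefSeq start site (build GRCh38.p14), which were found for 32 of the 34 genes, and the motif CACGTG, which reads the same on both strands. HNRNPA1 and SRSF2, which both fell, had no such sequence and were not searched. The motif was found for 5 of the 32 genes, 3 of 12 that fell, 0 of 6 that rose and 2 of 14 with no call (HNRNPA3 and HNRNPDL), against 9.82% of all tested genes with such a sequence. Over all tested genes with the motif 25.0% were called lower and 27.1% higher, and without it 19.3% and 22.5%, so genes with the motif were called more often in both directions. The 3 upstream windows of the falling genes are shown with the motif in capitals, 27 bases before the start for HNRNPD (chr4:82373992-82374241, minus strand), 50 for HNRNPH3 (chr10:68331443-68331692, plus strand) and 42 for HNRNPM (chr19:8444725-8444974, plus strand). A match in these letters is not a binding site, and a part of MYC in these changes was not tested. HNRNPUL1, the member with the largest fall, has no match in the windows of its 3 starts. HNRNPH3 also has 3 starts, and the motif lies in the window of 1 of them.
HNRNPD: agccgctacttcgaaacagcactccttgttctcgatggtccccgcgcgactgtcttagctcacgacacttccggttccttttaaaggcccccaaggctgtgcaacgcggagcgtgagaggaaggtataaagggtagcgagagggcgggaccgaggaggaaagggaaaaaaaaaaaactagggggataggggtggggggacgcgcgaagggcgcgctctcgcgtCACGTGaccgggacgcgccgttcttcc
HNRNPH3: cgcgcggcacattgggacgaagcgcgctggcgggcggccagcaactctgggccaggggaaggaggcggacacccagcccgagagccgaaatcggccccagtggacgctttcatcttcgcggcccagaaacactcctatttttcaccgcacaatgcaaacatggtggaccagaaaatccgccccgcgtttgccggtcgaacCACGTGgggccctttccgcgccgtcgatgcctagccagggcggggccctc
HNRNPM: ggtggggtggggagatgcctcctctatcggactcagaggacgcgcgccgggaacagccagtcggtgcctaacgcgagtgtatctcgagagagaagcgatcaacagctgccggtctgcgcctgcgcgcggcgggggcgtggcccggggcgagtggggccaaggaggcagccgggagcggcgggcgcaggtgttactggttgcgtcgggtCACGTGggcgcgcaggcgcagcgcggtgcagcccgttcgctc

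Among the SR protein genes the largest change was the fall of SRSF8, an expressed retrocopy of SRSF2. Its single probe set, a plain _at set, gave 0.29, 0.23 and 0.29 in the controls and -0.31, -0.23 and -0.27 after SHCBP1 shRNA. The groups were far apart, and the difference was -0.54 ± 0.04 (SE, n = 3 arrays per group, adjusted p = 1.93e-05 by limma). SRSF2, known as SC35 and a mark of nuclear speckles, gave 0.14, 0.11 and 0.12 against -0.12, -0.09 and -0.11 and fell by 0.23 ± 0.03. Its 3 probe sets ran from -0.50 to -0.01. All of them end in _s_at or _x_at, so no value was left for SRSF2 without such probe sets. Whether they also read SRSF8 was not tested. SRSF7, an SR protein that shuttles and takes part in mRNA export, gave 0.10, 0.05 and 0.09 against -0.07, -0.09 and -0.11 and fell by 0.17 ± 0.03 as a gene mean, which rests on 1 of its 4 probe sets: with the median of the probe sets the difference was -0.02 and the call was lost (adjusted p = 0.745 by limma), and without _s_at and _x_at probe sets it was -0.34.

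The 4 rises of SR protein genes were between 0.13 and 0.32 on the log2 scale. SRSF4, which encodes the long SR protein SRp75, was -0.13, -0.20 and -0.13 in the controls and 0.13, 0.21 and 0.14 after SHCBP1 shRNA, and rose by 0.32 ± 0.04 (adjusted p = 0.000382 by limma) with 1 probe set. SRSF5, known as SRp40, gave -0.09, -0.08 and -0.07 against 0.08, 0.10 and 0.09 and rose by 0.17 ± 0.03. The direction was shared by all 11 of its probe sets, which ran from 0.05 to 0.33, and 7 of them were called. SRSF11 gave -0.09, -0.09 and -0.08 against 0.11, 0.12 and 0.02, with SHCBP1 shRNA replicate 3 nearest to the controls. It rose by 0.17 ± 0.04 with 4 of 6 probe sets called higher and 0 lower, and its 2 probe sets without a call were at -0.12 and 0.08. Without _s_at and _x_at probe sets SRSF11 and HNRNPM lost their calls. SRSF1, the founding member of the family and a known proto-oncoprotein, gave -0.11, -0.05 and -0.02 against 0.06, 0.03 and 0.11. It rose by 0.13 ± 0.04 (adjusted p = 0.0295 by limma), a call lost without control shRNA replicates 1 or 2 and without SHCBP1 shRNA replicates 1 or 3 (adjusted p = 0.0617 to 0.0995). No change was called for SRSF9 (-0.09 ± 0.03), SRSF10 (-0.06 ± 0.03), SRSF3 (0.02 ± 0.03), SRSF12 (0.05 ± 0.07) or SRSF6 (0.06 ± 0.04). Of the 4 probe sets of SRSF9, 2 were called lower. The gene was called lower with repeated quantile normalization, with centred arrays and with the median of probe sets.

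Of 137 probe sets 32 were higher and 53 lower by limma's test over all probe sets, where 38.5% of all probe sets passed, 20.3% higher and 18.2% lower. In 10 of the 27 genes with more than 1 probe set, some probe sets rose while others fell. Over all 11734 such genes this was so in 4.11%. The count depends on how many probe sets a gene has: with 5 or more probe sets it was 7 of 13 members and 10.6% of all genes, with 3 to 4 it was 1 of 9 members and 190 of 4955 of all genes, and with 2 it was 2 of 5 members and 1.58% of all genes. The shares of all genes come without a filter for expression, since the values hold no level. They take in genes that may not be expressed in these cells. A comparison of the members with expressed genes alone was not possible. The 10 genes were HNRNPA0, HNRNPA1, HNRNPA3, HNRNPC, HNRNPD, HNRNPDL, HNRNPLL, SRSF3, SRSF6 and SRSF10. With _s_at and _x_at probe sets left out, 13 members kept more than 1 probe set. Of these 3, HNRNPC, HNRNPLL and SRSF3, moved both ways, against 304 of 9024 of all genes (3.37%). With spike-in scaling HNRNPC and SRSF3 did, 2 of 27 members against 320 of 11734 of all genes (2.73%).

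**Figure D3:**
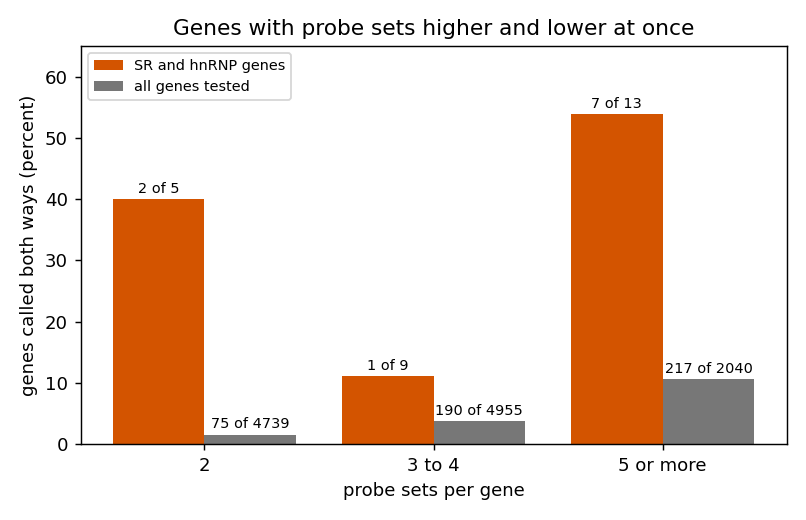
Percent of genes with at least 1 probe set called higher and 1 called lower, for SR and hnRNP genes and for all genes tested, by the number of probe sets per gene. With 5 or more probe sets 7 of 13 SR and hnRNP genes and 217 of 2040 of all genes moved both ways.

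To test the disagreement directly, each probe set was compared with the mean of its gene's other probe sets in the same array, a contrast that scaling of the arrays cannot move. Of 130 member probe sets that have such partners, 50 differed from them (limma with Benjamini-Hochberg adjustment over 38590 probe sets), against 16.3% of all. A difference of at least 0.5 was found for 13, against 4.45% of all. By name ending, 2 of 10 plain _at, 9 of 36 _a_at, 24 of 46 _s_at and 15 of 38 _x_at probe sets differed. Shares of all probe sets were not taken by ending. The 16.3% is over all endings, so the counts by ending have no background of their own. It is also taken without a filter for expression. Probe sets of a gene can share probes and are not independent, a gene with 2 probe sets counts for both, and the position of the probes along the transcripts was not used here. Transcript variants and reading of related copies therefore cannot be told apart.

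HNRNPC, which binds U-rich tracts and restrains inclusion of Alu-derived exons, had the widest spread of any member, from -0.64 to 0.95. Probe set 11762054_a_at was -0.53, -0.39 and -0.70 in the controls and 0.41, 0.39 and 0.43 after SHCBP1 shRNA, so it rose by 0.95 ± 0.08. Probe set 11732247_s_at ran the other way, 0.27, 0.31 and 0.29 against -0.40, -0.37 and -0.27, and fell by 0.64 ± 0.05. In both the groups were well apart. The rising probe set differed from its 5 partners by 1.26 ± 0.08 (adjusted p = 0.000182 by limma), and 11732246_a_at, at 0.29, 0.22 and 0.24 against -0.43, -0.22 and -0.39, fell by 0.60. The remaining 3 probe sets lay between -0.15 and -0.06, and the one at -0.15 was called lower. The gene mean of HNRNPC, 0.03, 0.05 and -0.01 against -0.09, -0.06 and -0.08, is taken over these opposite movements. Without _s_at and _x_at probe sets it turned from -0.10 to 0.17 and was called higher (adjusted p = 0.0281 by limma).

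SRSF3, which encodes the SR protein SRp20 with roles in splicing and mRNA export, had a gene mean of 0.01, -0.05 and -0.03 against 0.01, 0.00 and -0.02, which did not pass the test, but 6 of its 7 probe sets did. Probe set 11760279_a_at gave -0.22, -0.54 and -0.65 in the controls and 0.27, 0.27 and 0.22 after SHCBP1 shRNA, a rise of 0.72 ± 0.10. Its control shRNA replicate 1 lay nearer to 0 than the other controls, and the groups still did not overlap. Probe set 11723038_at gave 0.38, 0.27 and 0.43 against -0.30, -0.27 and -0.27, a fall of 0.65 ± 0.05. Both differed from their partners, by 0.82 ± 0.11 and by -0.78 ± 0.06 (adjusted p = 0.00263 and 0.000285 by limma). Of the other called probe sets of SRSF3 those that rose did so by 0.22 and 0.25, and those that fell did so by 0.22 and 0.23. With plain _at probe sets only, SRSF3 was called lower by 0.65.

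**Figure D4:**
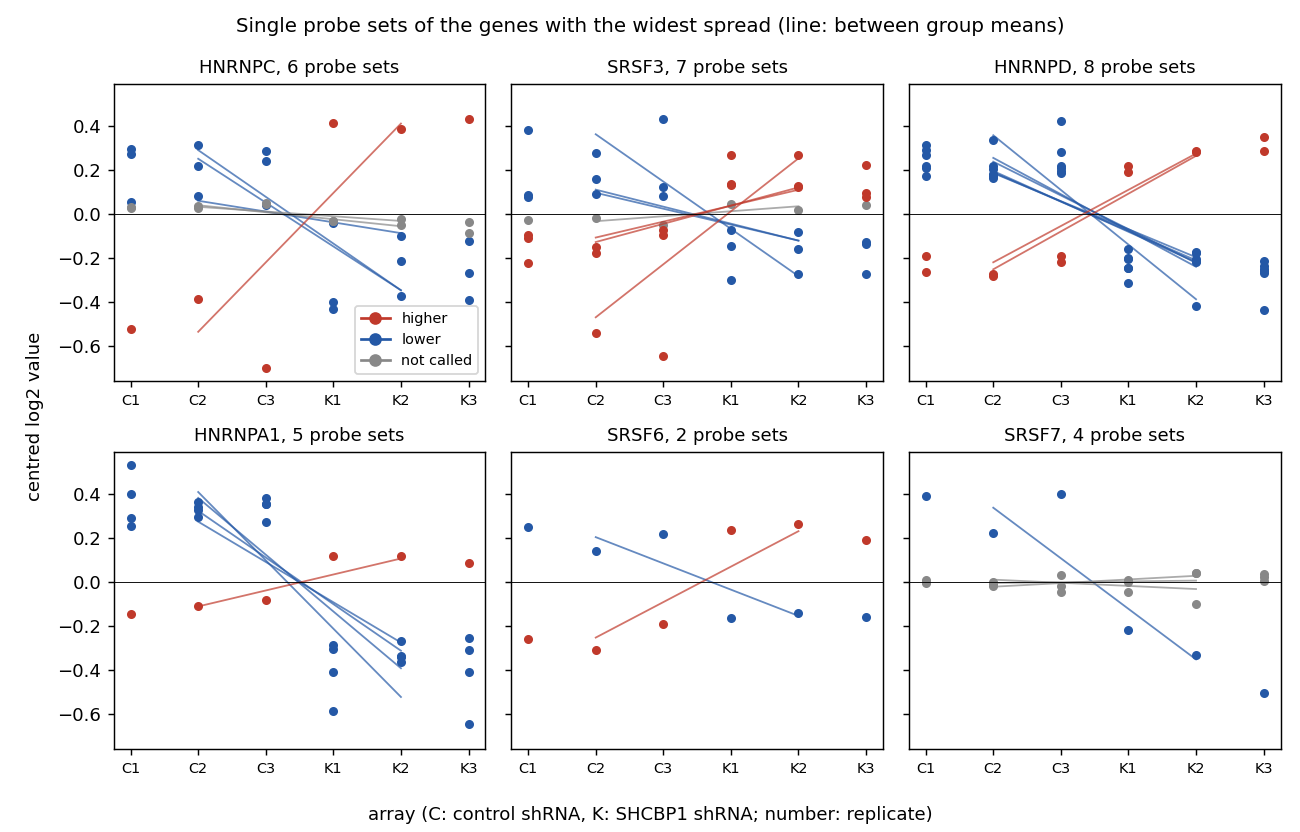
Centred log2 values of each probe set in each of the 6 arrays for HNRNPC, SRSF3, HNRNPD, HNRNPA1, SRSF6 and SRSF7, coloured by call, with a line between the group means of each probe set (n = 3 arrays per group). In each gene but SRSF7 called probe sets cross, and in SRSF7 only 11717294_a_at moved, by -0.69.

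HNRNPD split into 6 probe sets that fell, by between 0.38 and 0.75, and 2 that rose. The rising 11761589_x_at gave -0.26, -0.28 and -0.22 in the controls and 0.22, 0.29 and 0.28 after SHCBP1 shRNA, a rise of 0.52 ± 0.04, and 11760952_x_at, at -0.19, -0.28 and -0.19 against 0.19, 0.28 and 0.35, rose by 0.49 ± 0.06. The largest fall, in 11729146_a_at, was 0.31, 0.34 and 0.42 against -0.31, -0.42 and -0.44, or -0.75 ± 0.05. All 8 differed from the mean of their partners, the 2 rising ones by 0.86 and 0.84. Both rising probe sets carry the _x_at ending, but so do 11749304_x_at and 11729145_x_at, which fell, at -0.41 and -0.38. Of the falling probe sets only 11729146_a_at ends in neither _s_at nor _x_at.

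HNRNPA1 had 4 falling probe sets, all _x_at, at -0.93, -0.78, -0.64 and -0.55. The fifth, 11760085_s_at, gave -0.15, -0.11 and -0.08 against 0.12, 0.12 and 0.08 and rose by 0.22 ± 0.04. It differed from the others by 0.94 ± 0.05 (adjusted p = 0.000107 by limma).

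SRSF6, known as SRp55, has only 2 probe sets, and they opposed each other. Probe set 11716303_s_at was 0.25, 0.14 and 0.22 in the controls and -0.16, -0.14 and -0.16 after SHCBP1 shRNA, a fall of 0.36 ± 0.05. Probe set 11745822_x_at was -0.26, -0.31 and -0.19 against 0.23, 0.26 and 0.19, a rise of 0.48 ± 0.05. They differed from each other by 0.84 ± 0.05 (adjusted p = 0.000139 by limma), and the difference of 0.06 in the gene mean (-0.01, -0.09 and 0.01 against 0.03, 0.06 and 0.01) shows neither.

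SRSF7 followed another form, with 1 probe set that moved and 3 that stayed near 0. Probe set 11717294_a_at gave 0.39, 0.22 and 0.40 in the controls and -0.22, -0.34 and -0.50 after SHCBP1 shRNA, and fell by 0.69 ± 0.08. The others differed by between -0.04 and 0.05 without a call, and the falling probe set differed from them by -0.70 ± 0.09 (adjusted p = 0.0027 by limma).

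Smaller splits were seen in the other genes that moved both ways. SRSF10, an SR protein that represses splicing when it loses its phosphates in mitosis and heat shock, had 3 probe sets that rose, by 0.14 to 0.29, and 3 that fell, by 0.25 to 0.41, around a gene mean of -0.06. HNRNPLL, known for its part in CD45 splicing, had 1 plain _at probe set that rose by 0.41 ± 0.07 and differed from the other 4 by 0.53, while its called falls were 0.15 and 0.17. In HNRNPA3 the single rise was 0.25, and in HNRNPDL it was 0.28. The 2 probe sets of HNRNPA0 moved by -0.17 and 0.18. A wide range was also seen without opposite calls: the probe sets of HNRNPU spanned 0.73 on the log2 scale, those of SRSF2 0.48, those of HNRNPK 0.47 and those of SRSF11 0.44. The probe sets of SRSF5, which had the most, spanned 0.28, those of HNRNPUL1 0.26, and those of HNRNPR 0.06.

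Other genes of splicing were read from 7 lists with 184 genes, of which 170 were tested: 64 were called higher and 35 lower, against 22% and 19% of all genes, with a median of 0.05. SR-related proteins and cofactors gave 7 rises and 3 falls among 23, led by the arginine-serine rich factor gene SREK1 (0.41 ± 0.04), LUC7L (0.27), SCAF8 (0.26) and RSRP1 (0.24). Among 16 genes that phosphorylate, dephosphorylate or import SR proteins, 4 rose and 3 fell. The importin gene TNPO3, which carries phosphorylated SR proteins into the nucleus, rose by 0.34 ± 0.03, while of the SR protein kinase genes SRPK2 rose by 0.29 ± 0.03 and SRPK1 fell by 0.24 ± 0.03 as a gene mean. The 3 probe sets of SRPK1 moved both ways, with 1 called higher and 2 lower, between -0.56 and 0.15. AKAP17A, which encodes a protein kinase A anchor with an SR-like part, fell by 0.28. Of 45 other RNA-binding regulators 11 rose and 13 fell, with TAF15 (-0.82 ± 0.04), RBM10 (-0.72 ± 0.04) and FUBP3 (-0.67 ± 0.04) lower and the neuronal polypyrimidine tract binder PTBP2 higher (0.72 ± 0.06).

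Of 32 genes of the U4/U6.U5 tri-snRNP, the PRP19 complex (NTC) and splicing helicases 18 rose and 4 fell, with a median of 0.15, led by SNRNP27 (0.93 ± 0.03), ISY1 (0.65), CWC15 (0.61) and PRPF3 (0.54). Of 14 Sm and LSm genes, whose products form the rings around spliceosomal snRNAs, 9 rose and 2 fell, with a median of 0.20. LSM1, a decay factor of the cytoplasm, rose by 0.56, SNRPG by 0.29, and SNRPE and LSM4 fell by 0.60 and 0.46. Of 23 genes of U1 and U2 particles and 3′ splice site recognition 7 rose and 6 fell, with a median of 0.02, and the 4 largest changes were falls: SNRPA (-0.56), SF3B3 (-0.44), SF3A3 (-0.39) and SF3B1 (-0.29). The mean of SNRPE joins 2 probe sets at -1.12 and -0.08, of which 1 was called, and that of SF3B3 rests on 1 called probe set of 3, which ran from -1.16 to -0.07. Of 17 genes of the exon junction complex and nonsense-mediated decay, the pathway that removes poison-exon transcripts, 8 rose and 4 fell, with SMG9 (0.80 ± 0.05), SMG5 (0.64 ± 0.06), UPF2 (0.49 ± 0.04) and UPF1 (0.45 ± 0.04) higher. These rises, too, are relative: with spike-in scaling 7 of the 170 genes were higher and 151 lower.

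**Figure D5:**
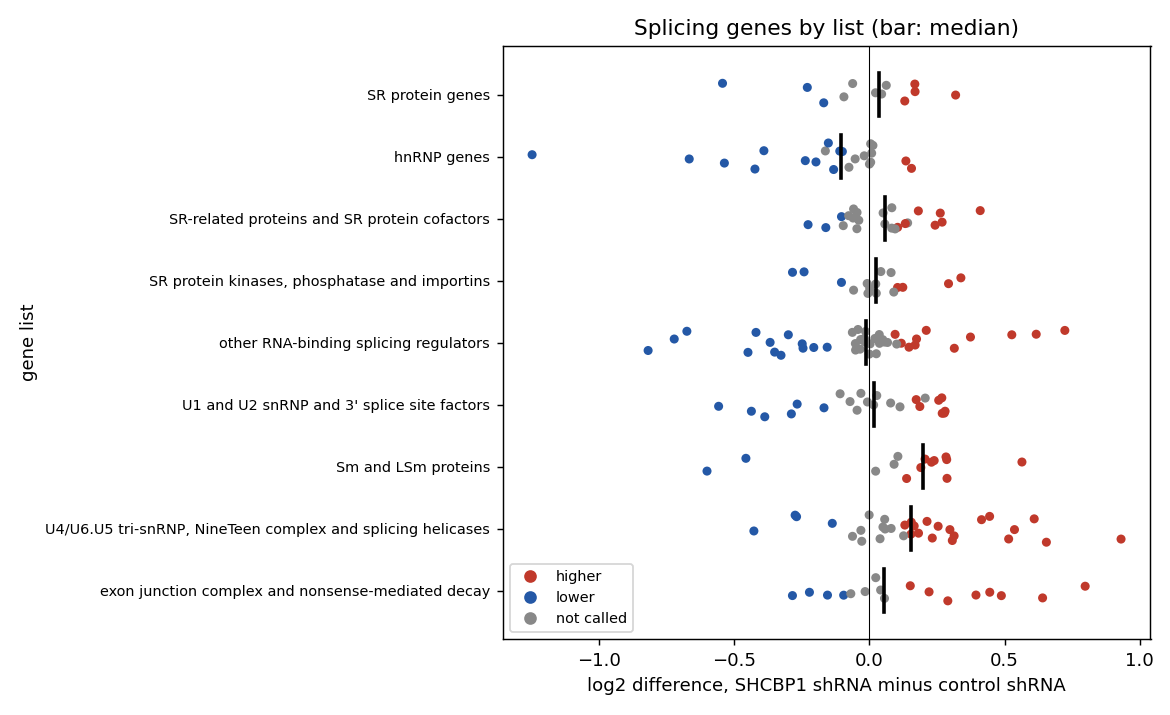
Log2 difference between SHCBP1 shRNA and control shRNA arrays for each gene of the SR and hnRNP families and of 7 other splicing lists, coloured by limma's call at an adjusted p under 0.05, with the median of each list as a bar. The median is -0.10 for hnRNP genes, 0.03 for SR protein genes and 0.15 for the tri-snRNP list.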

How the data were processed

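RNA of 6 samples, 3 per group by their titles, was measured on 1 array each. The deposited values are log2 values per probe set that the authors made with RMA, per the submitters' processing notes. The log base is not stated and was taken as that of RMA. In every probe set the 6 values have a median of 0, a step not given in the sources used here.

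Of 49395 probe sets, 102 controls, 1832 with several symbols and 2473 without one entered no gene test. Genes are means of their probe sets, with no filter. The SHCBP1 shRNA group was compared with the control shRNA group (positive means higher with SHCBP1 shRNA) in limma 3.58.1 in R 4.3.3, with Benjamini-Hochberg adjustment over all genes, all probe sets, or all probe sets with partners, and a threshold of 0.05. Errors are moderated standard errors, except those of the spike-in and ribosomal RNA controls, which come from the group variances without moderation. The number of arrays limits the precision. The scripts were tested on simulated data. No array repeated another (SD of differences 0.131 to 0.139 within groups and 0.347 to 0.354 between them).

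Members and lists were chosen with earlier results of these data known. By rule, values by array are given for up to 8 called rises (6 exist), the 8 largest called falls, the 6 genes with the widest probe set range and the 12 probe sets that differ most from their partners. From each other list up to 4 called genes with the largest change are named by their differences. Alternatives were a replicate block, a second quantile normalization, array weights, arrays centred on their median, leaving out each array, plain _at probe sets, the median of probe sets, spike-in scaling, robust moderation and diffSplice. Leaving out _s_at and _x_at probe sets was chosen after seeing the data. Upstream sequences are from RefSeq.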

Additional observations from a re-analysis of the deposited data

Results flagged for a closer look

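Probe sets with a second symbol beside a member's name took no part in the counts, and 4 of these 10 passed limma's test over all probe sets. Both probe sets shared by HNRNPA1 and its pseudogene HNRNPA1P10 were lower after SHCBP1 shRNA, 11719462_x_at by -0.56 ± 0.04 and 11757268_x_at by -0.52 ± 0.05, close to the _x_at probe sets of HNRNPA1 alone. Of those shared by HNRNPA3 and HNRNPA3P1, 11723198_s_at was higher by 0.21 ± 0.05. HNRNPH2, which is measured here only together with the readthrough transcript RPL36A-HNRNPH2, was higher in 11749449_s_at by 0.22 ± 0.04, and its other probe sets were at 0.04 and 0.14 without a call.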

How the results depend on the processing

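Calls of SR and hnRNP genes (6 higher, 14 lower) stayed within 1.5 times of these counts with repeated quantile normalization, centred arrays, array weights, robust moderation, the median of probe sets, the replicate block and each array left out. Spike-in scaling gave 441 higher and 16268 lower of all genes, 0 and 34 of SR and hnRNP genes, 2 and 126 of their probe sets, 7 and 151 of the other splicing genes, and 2 genes with probe sets both ways. It turned SRSF4 to -0.11, SRSF5 to -0.26, SRSF11 to -0.27, HNRNPUL2 to -0.28, HNRNPAB and SRSF1 to -0.30, SRSF6 to -0.37 and SRSF3 to -0.41, since it lowers each value by 0.43. Plain _at probe sets alone, which leave fewer genes measured, gave 995 higher and 905 lower of all genes, 1 and 2 of SR and hnRNP genes, 1 and 2 of their probe sets, 9 and 13 of the other splicing genes, and put SRSF3 at -0.65. With them 1 SR or hnRNP gene has more than 1 probe set, so that 0 probe sets that differed from partners and 0 genes with probe sets both ways show nothing about stability. Without _s_at and _x_at probe sets, 23 SR and hnRNP genes with 50 probe sets were left to measure. Of these genes 6 were higher and 6 lower, 11 of their probe sets were higher and 14 lower, 12 differed from partners, and 3 genes moved both ways. Over all 16701 genes left in that setting 3389 were higher and 2926 lower. HNRNPC was then called higher, at 0.17 (adjusted p = 0.0281 by limma). Leaving out 1 array gave 3536 to 3699 higher and 3119 to 3232 lower of all genes, 4 to 5 and 12 to 14 of SR and hnRNP genes, 24 to 28 and 44 to 47 of their probe sets, 57 to 66 and 30 to 32 of the other splicing genes, 38 to 42 probe sets that differed and 7 to 9 genes that moved both ways. Same-numbered samples did not deviate together (correlations 0.02, -0.05 and 0.07, against -0.10 to 0.08 for different numbers). These values cannot tell whether same-numbered samples were handled together. With the number as a replicate block 5 SR and hnRNP genes were higher and 12 lower, with the calls of HNRNPK, HNRNPC and HNRNPUL2 lost, 25 of their probe sets were higher and 48 lower, and 39 differed from partners. Of all 18132 genes 3783 were higher and 3309 lower with this block. With 3 arrays per group and no levels in the values, signal over background could not be judged.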
